A study of Mus musculus with 446 samples.

Results

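The endothelial marker genes described here were 10 genes chosen by symbol: Kdr, Flt1, Tek, Tie1, Ptprb, Pecam1, Cdh5, Esam, Emcn and Vwf. All 10 had a row among the 47643 genes of the liver and muscle tables. Among the 2728 complete genes of the adipose table, 5 of them had a row (Tek, Ptprb, Pecam1, Esam and Vwf), so the other 5 were not analysed in adipose. The study compared male Diversity Outbred mice, an outbred population in which each animal carries its own genetic mix, on a control and a high-fat diet, to relate tissue transcripts to variability among mice. The mice were housed singly from 6 weeks of age. The control group received a diet with 10 kcal% fat throughout, and the high-fat group received a diet with 60 kcal% fat for 14 weeks after randomisation. Total RNA was sequenced from abdominal adipose tissue (73 control and 75 high-fat mice), liver (74 and 75) and muscle (74 and 75), whose type the labels do not name.

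Endothelial cells line every blood vessel, and the 10 genes encode proteins at their surface, at their junctions or in their secretory granules. Kdr (VEGF receptor 2) and Flt1 (VEGF receptor 1, which also acts as a decoy for the ligand) bind VEGF. Tek (Tie2) is the receptor for angiopoietins, Tie1 is its partner receptor, and Ptprb (VE-PTP) is the phosphatase that acts on Tek and on the junctions. Cdh5 is VE-cadherin, the adhesion molecule that holds endothelial cells together. Pecam1 and Esam are further junctional adhesion molecules, Emcn is a sialomucin of capillary and venous endothelium, and Vwf is the clotting factor that endothelial cells and platelets store in granules. Liver is lined by sinusoidal endothelium with open pores, whereas muscle and adipose tissue hold continuous capillaries.

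Values are TPM, a gene's share of a library's transcripts after adjustment for transcript length, so levels of different genes can be compared. Each library was rescaled so that its protein-coding genes matched those of the other libraries of its tissue (scaled TPM). TPM keep no record of read depth, and the libraries' depths are therefore unknown. Protein-coding genes took a median of 60.6% of TPM in liver and 64.2% in muscle, but as little as 0.41% and 2.54% in single libraries. Libraries with a scale factor below the tissue's median factor divided by 3 (low-factor libraries) numbered 18 in adipose, 26 in liver and 11 in muscle. Test results that depend on them are given without them too. The library labelled liver of mouse 80 held Acta1, a muscle actin, at 29532 TPM, and the library labelled muscle held the hepatocyte gene Alb at 38485 TPM, so both were left out. Elsewhere median scaled TPM of Alb was 26940 in liver, that of Acta1 was 20835 in muscle and that of Lpl, the lipoprotein lipase of adipocytes, was 3951 in adipose. All 8 skeletal myocyte markers summed to 5643 scaled TPM in 1 high-fat liver library against a median of 1.52 in that group. The 8 hepatocyte markers summed to 7339 in 1 high-fat muscle library against a median of 6.9. The part of such libraries in the results was not tested.

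Pecam1 was the highest member in both adipose and muscle, whereas Ptprb and Kdr led in liver. In bulk tissue, fewer endothelial cells and less RNA of a gene per cell cannot be told apart, in these levels and in all comparisons that follow. Over the 73 control and 75 high-fat adipose libraries, scaled TPM of Pecam1 (ENSMUSG00000020717) ran from 74.9 to 234 with a median of 135.9. Esam (ENSMUSG00000001946) followed with a median of 89.8, and it lay below Pecam1 in 100% of libraries. Ptprb (ENSMUSG00000020154) had a median of 68.2 and lay below Esam in 98% of libraries. Vwf (ENSMUSG00000001930, median 32.9) and Tek (ENSMUSG00000006386, median 32.8) closed the adipose order and could not be separated, with Vwf the higher of them in 55.4% of libraries and a mean log2 difference of 0.10 against an SD of 0.52.

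In liver, Ptprb ran from 6.45 to 17.9 scaled TPM with a median of 13.3, and Kdr (ENSMUSG00000062960) ran from 4.66 to 17.3 with a median of 12.9. The log2 difference between them averaged 0.05 with an SD of 0.22 over libraries, so these 2 leading members did not differ beyond their spread. Kdr lay above Pecam1 (median 7.26) in 97.3% of libraries, with a mean log2 difference of 0.71 and an SD of 0.35. From Pecam1 downward no neighbouring members differed by more than 1 SD: the medians were 6.01 for Cdh5 (ENSMUSG00000031871), 4.66 for Tek, 4.55 for Esam, 3.17 for Tie1 (ENSMUSG00000033191), 2.89 for Flt1 (ENSMUSG00000029648), 2.1 for Emcn (ENSMUSG00000054690) and 1.99 for Vwf. Emcn was listed at 0 in 7 liver libraries, 3 control and 4 high-fat, and Esam in 3. The liver library of high-fat mouse 77, whose scale factor was low, listed Esam, Tie1, Flt1, Vwf and Emcn at 0.

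In muscle, Pecam1 ran from 16.2 to 62.3 scaled TPM with a median of 32.8, and it lay above Cdh5 (median 21.1) in 100% of libraries. Esam came next with a median of 16.2, below Cdh5 in 87.2% of libraries. The 2 VEGF receptors, Ptprb, Emcn and Tek then lay close together, with medians from 12.0 for Tek to 13.7 for Kdr, and none of these neighbours differed by more than 1 SD. Tie1 (median 8.03) lay below Tek in 97.3% of libraries, and Vwf was the lowest with a median of 5.88 and a range from 1.98 to 14.1. The coefficient of variation over muscle libraries ran from 16.8% for Ptprb to 34.6% for Vwf. In liver it ran from 13.1% for Ptprb to 92.2% for Vwf, and in adipose from 20.4% for Pecam1 to 38.4% for Vwf. Vwf thus had the largest coefficient in each of the 3 tissues. In liver, where its median was 1.99, its lowest value of 0 and its highest of 21.3 both came from low-factor libraries. The part of those libraries in its liver coefficient was not tested.

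**Figure D1:**
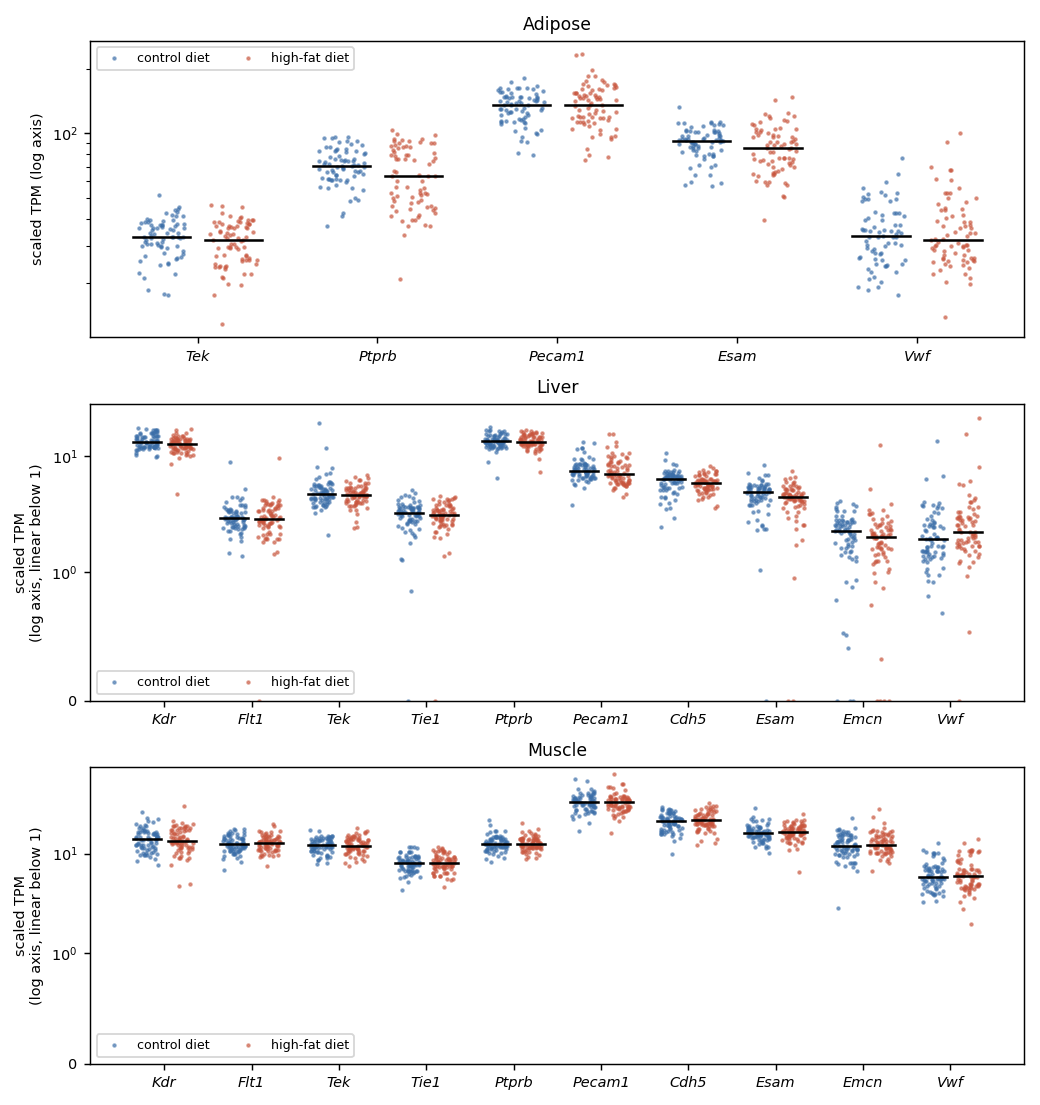
Scaled TPM of each endothelial marker gene (vertical axis, log scale, linear below 1 in liver and muscle) in every library of adipose, liver and muscle, with control mice in blue, high-fat mice in red and black bars for medians. The diet groups overlap for every member, and the adipose medians of Ptprb are 70.8 on control and 63.1 on high-fat diet.

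On the control diet, 8 of 10 members were lower in liver than in muscle and 2 were higher (limma on log2(scaled TPM + 1), both tissues scaled together, adjusted p under 0.05 after Benjamini-Hochberg adjustment). At this number of mice, 86% of the 11019 genes tested differed between the tissues, so a call alone does not set a member apart. By direction, 42.4% of genes were higher in liver and 43.6% higher in muscle. Emcn was lower in liver by the widest margin, with a log2 difference of -1.63 ± 0.08 (SE, 74 liver and 74 muscle libraries). Pecam1 (-1.40), Flt1 (-1.27), Esam (-1.12), Cdh5 (-1.08), Vwf (-0.75), Tie1 (-0.66) and Tek (-0.62) were also lower in liver. Ptprb (0.63 ± 0.04) and Kdr (0.51 ± 0.05) were higher in liver. The 2 VEGF receptors therefore differed between these tissues in opposite directions on this scale. All 10 calls held when low-factor libraries were left out. On TPM as deposited, whose median gene differed by -0.68 between the tissues, Ptprb stood at -0.24 (adjusted p = 0.111 by limma) and Kdr at -0.36 (adjusted p = 0.0174 by limma), both still above that median.

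All 5 members in the adipose table were higher in adipose than in liver and in muscle on the control diet, where 87.6% of 1867 and 92.4% of 1981 shared genes differed (43.5% higher and 44% lower in adipose than in liver, 47.9% higher and 44.5% lower than in muscle). Against liver the log2 differences were 2.41 for Esam, 2.22 for Pecam1, 1.99 for Vwf, 0.85 for Tek and 0.56 for Ptprb. Against muscle they were 1.12 for Esam, 1.09 for Ptprb, 1.07 for Vwf, 0.67 for Pecam1 and 0.09 for Tek. Tek in adipose against muscle had the weakest support (adjusted p = 0.0442 by limma).

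**Figure D2:**
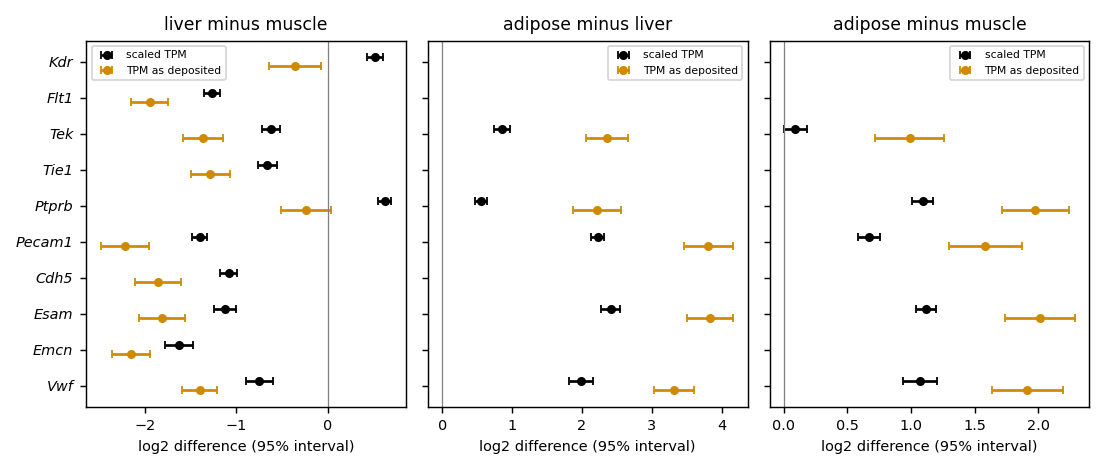
Log2 differences of each member between tissues on the control diet (horizontal axis, points with 95% intervals), from scaled TPM in black and from TPM as deposited in orange. Ptprb and Kdr lie right of 0 in the liver minus muscle panel for scaled TPM, at 0.63 and 0.51, and left of it for TPM as deposited, while the other 8 lie left of 0 on both scales.

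In adipose, Ptprb was lower on the high-fat diet, and the other 4 members did not pass the test. Ptprb ran from 36.8 to 96.5 scaled TPM with a median of 70.8 in control mice, and from 20.9 to 103.8 with a median of 63.1 in high-fat mice. The groups overlapped widely, and 32 of 75 high-fat mice lay above the control median. The log2 difference was -0.18 ± 0.06 (SE), a change of -11.9% with a 95% interval from -19.4% to -3.73% (adjusted p = 0.0146 by limma). That made 1 of 5 members called, against 45.6% of the 2226 adipose genes tested (22.9% higher and 22.7% lower on high-fat diet). The median log2 difference was -0.08 over the members and -0.02 over all genes tested. Esam ran from 56.8 to 132.6 (median 91.9) in control and from 39.3 to 147.7 (median 85.3) in high-fat mice. Esam (-0.10 ± 0.05, adjusted p = 0.117 by limma) and Tek (-0.08 ± 0.05, adjusted p = 0.222 by limma) did not pass. Pecam1 (0.03, adjusted p = 0.661 by limma) and Vwf (0.03, adjusted p = 0.755 by limma) did not pass either, and their 95% intervals ran from -0.07 to 0.13 and from -0.12 to 0.19.

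The Ptprb call held under every alternative tried but one. On TPM as deposited, whose all-gene adipose median was 0.21, Ptprb stood at 0.060 (adjusted p = 0.79 by limma). Markers of other cell types moved with diet in the same libraries. Of the 4 macrophage markers in the adipose table, 3 were tested and 2 rose: Cd68 by 1.56 and Adgre1 by 1.18 on the log2 scale. The third, Cd163, stood at -0.13 without passing (adjusted p = 0.171 by limma). The summed macrophage markers ran from 57.8 to 628 scaled TPM in control and from 78.6 to 1046 in high-fat mice, with Clec4f at a median of 0. All 4 adipocyte markers in the table fell, and their sum ran from 1974 to 12056 in control and from 1876 to 8591 in high-fat mice. The part of these markers in the Ptprb difference was not tested.

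In liver, 1 of 10 members passed, against 9.94% of 12376 genes (4.57% higher and 5.37% lower on high-fat diet). Kdr ran from 9.87 to 17.3 scaled TPM with a median of 13.3 in control mice and from 4.66 to 17.2 with a median of 12.7 in high-fat mice. The groups overlapped over nearly the whole range, and 26 of 74 high-fat mice lay above the control median. Its log2 difference was -0.10 ± 0.03, a change of -6.65% with a 95% interval from -11% to -2.09%, and its adjusted p of 0.0499 (limma) lay at the threshold. The call was lost when low-factor libraries were left out, where the difference was -0.07 (adjusted p = 0.0993 by limma). It was also lost without the 7 mice whose liver and muscle did not match, at -0.06 (adjusted p = 0.195 by limma). All of those mice but mouse 45 had a low-factor liver library, so the 2 exclusions overlap. With a pseudocount of 0.1, with no filter on low values and on TPM as deposited, Kdr did not pass either. Markers of other cell types moved in the same liver libraries. Of 8 hepatocyte markers 6 fell (median log2 difference -0.17), and their sum ran from 39976 to 93673 scaled TPM (median 58701) in control and from 31283 to 77417 (median 52416) in high-fat mice. Of 10 macrophage markers tested 3 fell and 0 rose (median -0.14), and the sum of all 11 ran from 54.5 to 383 (median 133.7) in control and from 54.6 to 281 (median 111.1) in high-fat mice. None of these markers was at a median of 0. Their part in the Kdr difference was not tested.

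Vwf was the 1 liver member with a difference above 0, and it did not pass over all libraries. It ran from 0.683 to 13.4 scaled TPM with a median of 1.91 in control mice and from 0 to 21.3 with a median of 2.22 in high-fat mice. Of 74 high-fat mice, 46 lay above the control median. The log2 difference was 0.19 ± 0.10 (adjusted p = 0.238 by limma), and it was 0.22 ± 0.07 when the 26 low-factor libraries were left out (adjusted p = 0.0114 by limma). The highest value of each group, 13.4 and 21.3, came from a low-factor library. The 9 platelet and megakaryocyte markers summed to between 0 and 10.97 (median 2.99) in control and between 0 and 12.7 (median 2.3) in high-fat livers, 0 of 2 tested passed, and Gp9, Gp1bb, Gp6 and Treml1 were at a median of 0. Their part in the Vwf values was not tested. The remaining 8 liver members lay between -0.11 and -0.0047 with adjusted p from 0.349 to 0.969 (limma), and 9 of 10 members in all had differences below 0. The median was -0.04 over the members and -0.0057 over all genes tested. The members come from the same libraries, so the count below 0 is no test of a shared fall.

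In muscle, 0 of 10 members passed, against 1.61% of 13517 genes (1.03% higher and 0.577% lower on high-fat diet), and 0 of 10 had an unadjusted p under 0.05 (limma). Differences ran from -0.02 for Kdr to 0.09 for Emcn on the log2 scale, with standard errors between 0.04 and 0.07. Emcn ran from 2.84 to 22.5 scaled TPM (median 11.9) in control mice and from 6.7 to 27.9 (median 12.2) in high-fat mice. Of the markers of other cell types tested in muscle, 0 of 7 for macrophages, 0 of 8 for adipocytes, 0 of 8 for myocytes and 0 of 6 for hepatocytes passed. Their median log2 differences were 0.15, 0.14, -0.12 and 0.08 in that order, against -0.0048 over all genes. Of the adipocyte markers, Lep stood at 1.03 (adjusted p = 0.0615 by limma) and Slc2a4 at -0.16 (adjusted p = 0.061 by limma). The adipocyte marker sum had a median of 594.9 scaled TPM in control and 659.9 in high-fat mice. The 95% intervals of all 10 members lay between a fold of 0.906 and 1.15. Differences within that range could not be resolved.

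**Figure D3:**
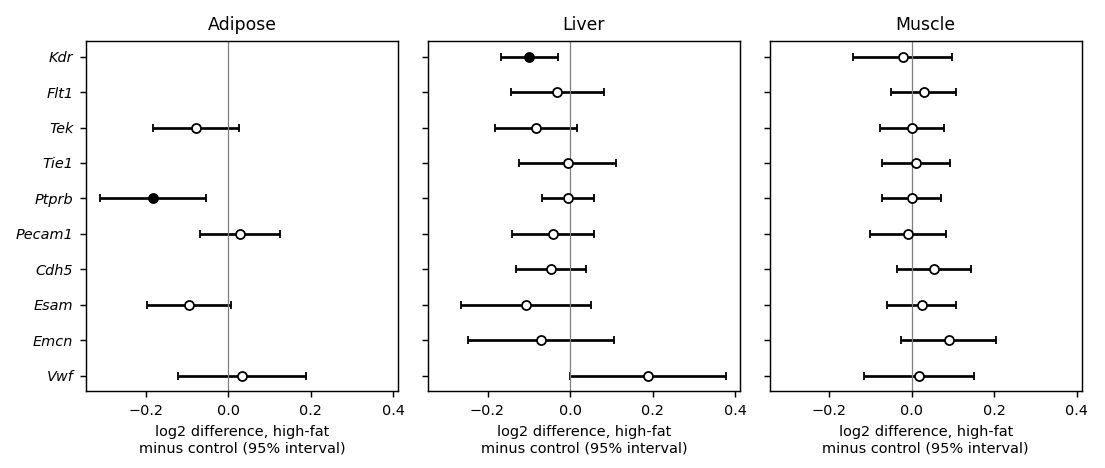
Log2 difference of each member between high-fat and control mice (horizontal axis, points with 95% intervals) in adipose, liver and muscle. Filled points have an adjusted p under 0.05 by limma, which holds for Ptprb in adipose (-0.18) and Kdr in liver (-0.10) and for no member in muscle.

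The diet effect of no member differed between tissues by an interaction test. Liver against muscle gave 0 of 10 members (3.26% of 11019 genes passed, 1.21% positive and 2.05% negative), adipose against liver 0 of 5 (24.1% of 1867, 14.7% positive and 9.37% negative) and adipose against muscle 0 of 5 (21.7% of 1981, 11.8% positive and 9.84% negative). Ptprb came nearest, with a diet effect in adipose below that in liver by 0.17 (unadjusted p = 0.0293, adjusted p = 0.0986 by limma) and below that in muscle by 0.17 (unadjusted p = 0.0242, adjusted p = 0.089 by limma). No other member had an unadjusted p under 0.05 in any of the 3 tests. With low-factor libraries left out, Vwf passed in liver against muscle with an interaction of 0.29 ± 0.09 (adjusted p = 0.0447 by limma).

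In adipose, Ptprb and Esam spread more widely between mice on the high-fat diet. Each mouse's absolute distance from its diet group's median log2 value was compared between diets for genes with a mean above 5 scaled TPM. For Ptprb this distance averaged 0.22 on control and 0.41 on high-fat diet (difference 0.19 ± 0.04, adjusted p = 0.000619 by limma). The lower and upper quartiles were 61.6 and 81.3 scaled TPM in control mice and 46.5 and 82.8 in high-fat mice. For Esam it averaged 0.18 and 0.30 (difference 0.11 ± 0.03, adjusted p = 0.0337 by limma). The 2 called members stood against 2.36% of 1906 adipose genes (2.05% wider on high-fat diet). Pecam1 (adjusted p = 0.24 by limma), Tek (0.633) and Vwf (0.832) did not pass. Both calls held when low-factor libraries were left out, and neither held on TPM as deposited, on which 0 genes passed. In liver 0 of 4 members and in muscle 0 of 10 passed, against 0.0266% of 7532 and 0.0345% of 8706 genes.

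Ratios between chosen pairs of members were compared by diet in a family of 10 permutation tests over mice (100000 resamples, two-sided). Vwf to Pecam1 in liver averaged -1.50 ± 0.51 on control and -1.27 ± 0.71 on high-fat diet (log2, SD, n = 74 and 74), a difference of 0.23 (p = 0.0255, adjusted p = 0.128 by permutation). When low-factor libraries were left out, that difference was 0.30 with an adjusted permutation p of 0.0013. Ptprb to Tek, the phosphatase relative to its receptor substrate, averaged 1.08 on control and 0.97 on high-fat diet in adipose (p = 0.0182, adjusted p = 0.128 by permutation). The VEGF receptor ratio Flt1 to Kdr averaged -1.87 on control and -1.80 on high-fat diet in liver, and -0.14 and -0.09 in muscle, without a call in either (adjusted p = 0.598 and 0.727 by permutation). The angiopoietin receptor ratio Tek to Tie1 did not pass in liver or muscle (adjusted p = 0.598 and 0.989 by permutation).

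Across adipose libraries, 4 of the 5 members varied together and Vwf stood more apart. Correlations were computed over 73 control and 75 high-fat mice on log2 values with each diet group's mean removed, with permutation p-values adjusted over the pairs of a tissue. All 10 pairs passed, with a median Pearson's r of 0.70, while the members' r with all adipose genes had a median of -0.04. The strongest pair was Ptprb and Esam (r = 0.87, Spearman's rho = 0.85, permutation p = 1e-05 for each, the smallest that 100000 resamples can give), and r was 0.85 without the 2 most extreme mice. The 6 pairs among Ptprb, Esam, Tek and Pecam1 had r from 0.69 to 0.87. The 4 pairs with Vwf had r from 0.17 with Esam to 0.44 with Pecam1. With low-factor libraries left out, 9 of 10 pairs passed and the median r was 0.73. Within control mice alone 8 pairs passed and the median pair had r = 0.60. Within high-fat mice 9 pairs passed and the median pair had r = 0.75. Because members of a pair come from the same library, library quality is shared by both values.

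In muscle, 38 of 45 pairs passed and all 38 were positive, with a median r of 0.36 against 0.0003 for the members with all muscle genes. Ptprb and Esam were again the strongest pair (r = 0.54, rho = 0.47, permutation p = 1e-05 for each, adjusted p = 2e-05, and r = 0.49 without the 2 most extreme mice), followed by Kdr and Tie1 (r = 0.53). Of the 7 pairs that did not pass, 5 held Vwf (with Tek, Flt1, Kdr, Esam and Emcn) and the other 2 paired Flt1 with Tek and with Esam. Vwf did follow Pecam1 (r = 0.41) and Ptprb (r = 0.40). With low-factor libraries left out, 42 pairs passed and the median r was 0.41.

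Liver members varied together less. Of 45 pairs 20 passed, 16 of them positive, with a median r of 0.15 against 0.06 for the members with all genes. With the 26 low-factor libraries left out, 15 pairs passed, all positive, and the median r was 0.14 against 0.0005. Ptprb and Kdr, the 2 highest liver members, gave r = 0.41 (rho = 0.37) in all libraries and r = 0.43 (rho = 0.45) without low-factor libraries, with an adjusted permutation p for r of 0.0003 and 0.00045. The 4 negative pairs in all libraries (Pecam1 with Tie1 and with Flt1, Tek with Flt1, and Esam with Vwf) did not pass by Spearman's rho, the smallest adjusted p being 0.0956 by permutation.

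**Figure D4:**
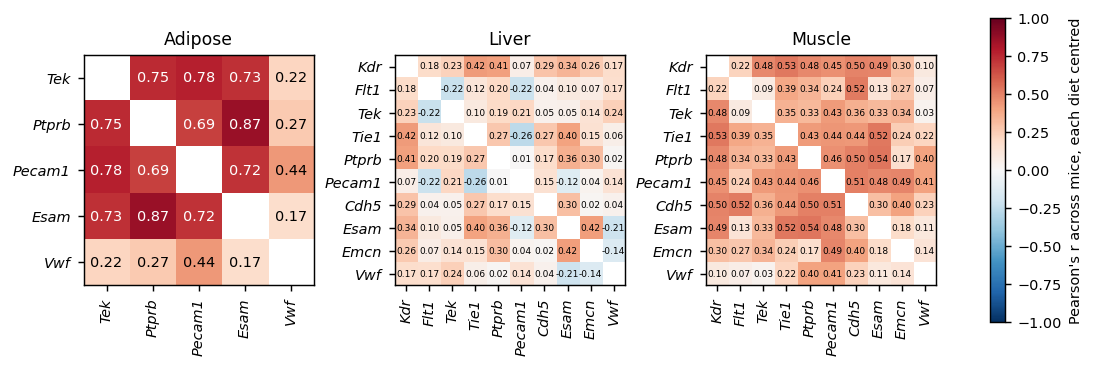
Pearson's r between members across mice in adipose, liver and muscle, on log2(scaled TPM + 1) with each diet group's mean removed (colour from -1 in blue to 1 in red). The median pair has r = 0.70 in adipose, 0.15 in liver and 0.36 in muscle, and the row of Vwf is paler than the others in adipose.

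The level of a member in one tissue of a mouse was not seen to follow its level in another tissue. Over 20 relations, 10 between liver and muscle and 5 each with adipose, 0 passed adjustment and 1 had an unadjusted permutation p under 0.05. That relation was Vwf between liver and muscle (r = 0.18, rho = 0.17, permutation p = 0.037, adjusted p = 0.742, 74 control and 74 high-fat mice). Its r was 0.15 without the 2 most extreme mice and -0.080 on TPM as deposited. Within high-fat mice r was 0.31 (adjusted permutation p = 0.134) and within control mice -0.03. It was 0.21 without the mice that did not match (adjusted permutation p = 0.244) and 0.099 without low-factor libraries. The median over all genes was 0.05 between liver and muscle, and genes above 0.33 made up the top 5%.

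The genes whose variation in muscle was most like that of the members were, by mean r with the 10 members, Cd93 (0.47), Arap3 (0.45), Adgrf5 (0.45), the VEGF co-receptor Nrp1 (0.44), Sptbn1 (0.41), the fatty acid transporter Cd36 (0.41), Ushbp1 (0.40), Cd300lg (0.40), Itga1 (0.39) and Cavin2 (0.38), out of 11778 other genes with a median of -0.0011. In adipose they were Sema6a (0.62), Sptbn1 (0.61), Ramp2 (0.61), Cd300lg (0.59), Ebf3 (0.58), Sept4 (0.57), Utrn (0.55), Icam2 (0.55), Bcl6b (0.55) and the adipocyte lipid droplet gene Plin4 (0.53), out of 2202. Sptbn1 and Cd300lg stood in both sets of 10. In liver the highest were Itga1 (0.29), the sinusoidal gene Oit3 (0.29), Igfbp7 (0.29), Rnf5 (0.28) and Mrc1, a scavenging receptor of sinusoidal endothelium (0.28), followed by Plin3, Retreg3, Hdhd5, Naprt and Eif4ebp1, the last at 0.27. The median over the other genes was -0.05 in adipose and 0.07 in liver. In liver 0 of 19 other pan-endothelial genes tested stood among the top 50, against 5 of 20 in muscle. The median mean r in liver was 0.11 over the sinusoidal list and 0.12 over the macrophage list. With low-factor libraries left out, those 2 medians were 0.12 and 0.07, and the 10 liver genes named had means between 0.08 and 0.21.

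In muscle, 4 members correlated by both r and rho across mice with Vegfa, the VEGF ligand that Kdr and Flt1 bind. Vegfa ran from 48.1 to 237 scaled TPM with a median of 94.6 in muscle. Over 74 control and 74 high-fat mice Flt1 gave the strongest relation (r = 0.52, rho = 0.49, permutation p = 1e-05 for each, adjusted over 20 relations to 1e-04 and 2e-04), and r was 0.47 without the 2 most extreme mice. Only 0.525% of 13517 muscle genes had a higher r with Vegfa than Flt1 had. How many of all muscle genes would pass with Vegfa was not counted, so the count of 4 members stands without that share. Kdr (r = 0.37, rho = 0.31, adjusted permutation p = 1e-04), Tie1 (r = 0.36, rho = 0.30, adjusted permutation p = 2e-04) and Emcn (r = 0.29, rho = 0.35, adjusted permutation p = 0.00112) followed. Tek passed by r (0.19, adjusted permutation p = 0.0448) but not by rho (0.19, adjusted permutation p = 0.0606). Cdh5, Esam, Ptprb, Pecam1 and Vwf did not pass, with r from 0.17 down to -0.08.

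The Flt1 relation was present in each diet group, with r = 0.59 in control and 0.48 in high-fat mice, and it was 0.57 with low-factor libraries left out. Kdr gave 0.41 and 0.35 in the diet groups and Tie1 gave 0.37 and 0.35. Emcn gave 0.35 and 0.25, the latter with an adjusted permutation p of 0.0679. Whether the members differ from each other in their r with Vegfa was not tested.

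In liver 4 of the 10 members passed with Vegfa by r, and which ones depended on the low-factor libraries. The members' r with all liver genes had a median of 0.06 and a 95th percentile of 0.36. Without low-factor libraries these were 0.0005 and 0.20. How many of all liver genes would pass with Vegfa was not counted. Flt1 gave r = 0.37 but rho = 0.10, and r = -0.031 without low-factor libraries, so that relation rested on those libraries. Esam gave r = 0.24 but rho = 0.029, and it did not pass without them (r = 0.11, adjusted permutation p = 0.293). Tek in liver was negative (r = -0.25, rho = -0.23, adjusted permutation p = 0.00377 and 0.018), and it did not pass without low-factor libraries (r = -0.13, adjusted permutation p = 0.252). Cdh5 passed by r in all libraries (r = 0.20, rho = 0.19, adjusted permutation p = 0.0289 and 0.0606). Without low-factor libraries it passed by both measures (r = 0.26, rho = 0.25, adjusted permutation p = 0.0146 and 0.0199). Within control mice Cdh5 gave r = 0.098 and within high-fat mice r = 0.32 (adjusted permutation p = 0.539 and 0.013). Tie1 did not pass in all libraries (r = 0.14, adjusted permutation p = 0.151) and passed by r without low-factor libraries (r = 0.23, rho = 0.19, adjusted permutation p = 0.0269 and 0.116).

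The upstream sequences of the 4 genes that correlated with Vegfa in muscle by both r and rho are shown because these genes moved together. RefSeq's table for GRCm38.p6 held 5 of the 10 members (Tek, Kdr, Tie1, Flt1 and Emcn), and the sequences are the 250 bases before each annotated start, 5′ to 3′ on the gene's strand. Capitals mark the letters AGGAAG on either strand, which ETS factors read, a family that includes the endothelial regulators Erg, Fli1 and Ets1. The form CGGAAG is marked in the same way.
Flt1 (chr5:147726012-147726261, minus strand): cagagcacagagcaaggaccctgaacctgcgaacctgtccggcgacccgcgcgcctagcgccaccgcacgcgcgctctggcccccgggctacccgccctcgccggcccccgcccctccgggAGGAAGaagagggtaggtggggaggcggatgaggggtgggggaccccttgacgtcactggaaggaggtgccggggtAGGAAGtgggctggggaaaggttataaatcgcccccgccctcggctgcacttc
Kdr (chr5:75978456-75978705, minus strand): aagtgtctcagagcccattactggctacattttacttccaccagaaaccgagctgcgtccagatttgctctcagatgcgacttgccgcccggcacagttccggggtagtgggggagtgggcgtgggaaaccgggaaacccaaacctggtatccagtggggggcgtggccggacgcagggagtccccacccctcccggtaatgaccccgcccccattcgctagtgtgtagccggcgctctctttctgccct
Tie1 (chr4:118489850-118490099, minus strand): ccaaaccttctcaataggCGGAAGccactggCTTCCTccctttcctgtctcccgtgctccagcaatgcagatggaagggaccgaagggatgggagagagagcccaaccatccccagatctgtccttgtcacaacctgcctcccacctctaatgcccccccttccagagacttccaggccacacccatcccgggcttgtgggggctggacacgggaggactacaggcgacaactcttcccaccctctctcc
Emcn (chr3:137340828-137341077, plus strand): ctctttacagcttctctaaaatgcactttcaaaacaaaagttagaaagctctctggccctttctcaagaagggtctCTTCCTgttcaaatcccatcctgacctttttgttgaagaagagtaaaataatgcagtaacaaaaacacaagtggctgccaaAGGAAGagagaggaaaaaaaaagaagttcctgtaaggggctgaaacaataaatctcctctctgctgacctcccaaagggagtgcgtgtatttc
Such letters stood in 3 of the 5 members' windows, 2 matches each in Flt1, Tie1 and Emcn, and in 39.2% of 32851 windows of the same length over all genes. Kdr and Tek held none in these 250 bases. ACGTG (both strands), a form of the core of the hypoxia response element, stood in 0 of 5 members' windows and in 16.6% of all. The other form, GCGTG, was not counted. It can be read in the windows of Kdr and Emcn, and on the other strand in that of Flt1. On both strands, AACAAT, read by SOX factors, stood in the windows of Tek and Emcn and in 9.42% of all windows. The GATA factor letters AGATAA stood in none of the 5 members' windows and in 9.99% of all. Letters read by FOX factors, spelled GTAAACA on either strand, stood in none of the 5 and in 3.17% of all. A match describes letters only and is no sign of binding.

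**Figure D5:**
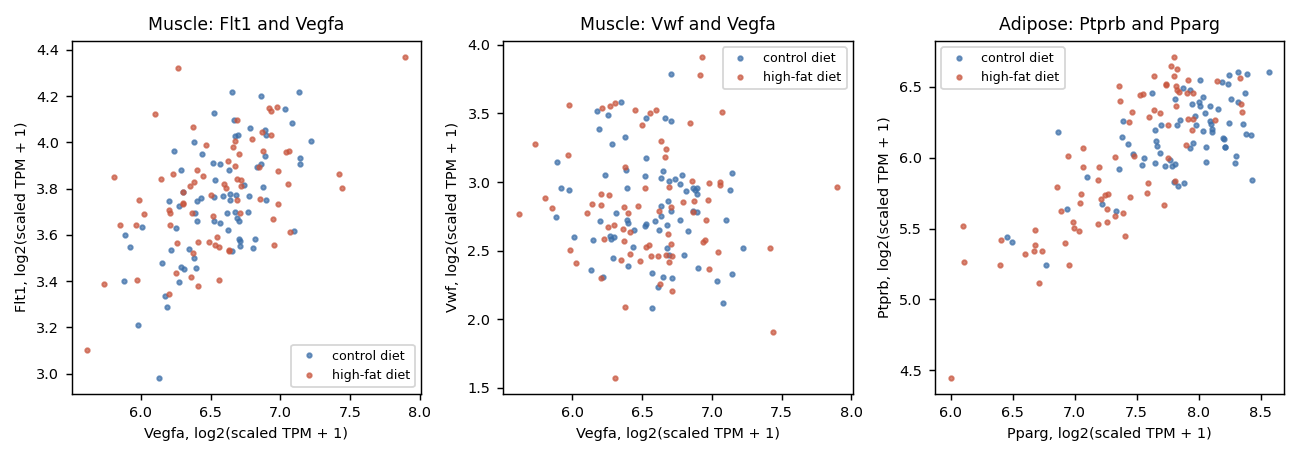
Log2(scaled TPM + 1) of Flt1 and of Vwf against Vegfa in muscle and of Ptprb against Pparg in adipose, 1 point per mouse, control in blue and high-fat in red. With each diet's mean removed, r is 0.52 for Flt1 and -0.08 for Vwf with Vegfa, and 0.76 for Ptprb with Pparg.

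In adipose, Ptprb, Esam and Tek followed all 4 adipocyte markers over the mice of both diets, and Pecam1 followed 2 of them. Ptprb and Esam also ran against 2 macrophage markers. These 35 relations, 5 members with 7 marker genes, were chosen after values had been seen. Pparg, the master regulator of adipocyte differentiation, gave r = 0.76 with Ptprb (rho = 0.72), 0.70 with Esam (rho = 0.66), 0.60 with Tek (rho = 0.54) and 0.45 with Pecam1 (rho = 0.37). Each had a permutation p of 1e-05 for r, the smallest 100000 resamples can give, and an adjusted p of 2.33e-05. Without the 2 most extreme mice r was 0.74, 0.67, 0.55 and 0.41 in that order. The 3 other adipocyte markers were Lpl, Retn and Slc2a4. Lpl gave 0.62 with Ptprb and with Esam, 0.59 with Tek and 0.46 with Pecam1, and all 4 passed. Retn, which encodes resistin, gave 0.60 with Ptprb, 0.49 with Esam and 0.35 with Tek, and it did not pass with Pecam1 (0.17, adjusted permutation p = 0.071). Slc2a4, the insulin-responsive glucose transporter, gave 0.60, 0.48 and 0.36 with those 3 and did not pass with Pecam1 (0.14, adjusted permutation p = 0.153). In all, 22 of the 35 relations passed by r. The members' r with all adipose genes had a median of -0.04, with 5th and 95th percentiles of -0.43 and 0.45. How many of all adipose genes would pass with these markers was not counted. Vwf did not pass with Pparg (r = -0.04, rho = -0.06, adjusted permutation p = 0.713) or with any of the other 6 markers.

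Ptprb ran against Cd68 (r = -0.40, rho = -0.33, adjusted permutation p = 2.33e-05, -0.37 without the 2 most extreme mice) and Adgre1 (r = -0.40, rho = -0.35), and with the resident macrophage receptor Cd163 (r = 0.36, rho = 0.35). Pecam1 and Tek did not pass with Cd68 or Adgre1, and both passed with Cd163 (r = 0.28 and 0.27). The Ptprb and Cd68 relation was -0.16 within control mice, without passing (adjusted permutation p = 0.263), and -0.51 within high-fat mice. Esam gave -0.28 with Cd68 in all mice, -0.0039 in control and -0.43 in high-fat mice. The difference between diet groups in these correlations was not tested. On TPM as deposited all 35 relations passed, while the members' r with all adipose genes had a median of 0.87.

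The other vascular lists are counted by diet beside the share of all genes called, which was 45.6% in adipose, 9.94% in liver and 1.61% in muscle. At that muscle share, a count of 0 among 20 genes is near the background. Of 20 further pan-endothelial genes, 0 of 3 passed in adipose, 0 of 19 in liver and 0 of 20 in muscle, and the smallest adjusted p was 0.0613 for Nos3 in liver (-0.15, limma). Of 12 liver sinusoidal genes, 0 of 12 passed in liver, where their median was -0.08 against -0.01 over all genes. Gpr182 (-0.14, adjusted p = 0.112 by limma), the mannose receptor Mrc1 (-0.14, 0.156) and the hyaluronan receptor Lyve1 (-0.24, 0.174) came nearest. In adipose 1 of 2 tested rose, Wnt2, a Wnt ligand, by 0.33 (adjusted p = 0.000566 by limma). Of the endothelial transcription factors, Fli1 rose in adipose by 0.19 ± 0.05 (adjusted p = 0.000749 by limma), 1 of 3 tested there, and 0 of 7 passed in liver and 0 of 12 in muscle.

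Among VEGF and angiopoietin ligands and co-receptors, 1 of 6 rose and 1 fell in liver, where 4.57% of all genes rose and 5.37% fell. Vegfb, a ligand of Flt1, fell by 0.61 on the log2 scale (SE 0.09, adjusted p = 2.84e-08 by limma) from a mean of 4.02 to 2.38 scaled TPM, and Nrp1 rose by 0.26 (SE 0.06, adjusted p = 0.00115 by limma) from 17.6 to 21.6. Vegfa itself stood at -0.12 without passing (adjusted p = 0.131 by limma). In muscle 0 of 10 passed, with the placental growth factor Pgf at 0.19 (adjusted p = 0.0524 by limma) and the Tek ligand Angpt1 at 0.21 (adjusted p = 0.139 by limma), and in adipose 0 of 2 passed.

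In muscle 1.03% of all genes rose by diet and 0.577% fell, and in liver 4.57% rose and 5.37% fell. Of the continuous capillary genes, 2 of 10 rose in muscle: Cd36 by 0.38 ± 0.08 (adjusted p = 0.00273 by limma) and Cd300lg by 0.20 ± 0.06 (adjusted p = 0.0311 by limma). Muscle fibres and adipocytes express Cd36 as well. The part of adipocytes in the muscle differences of Cd36 and Cd300lg was not tested. Cd36 also rose in liver (0.43, adjusted p = 0.0292 by limma), where hepatocytes and macrophages express it, and not in adipose (0.05, adjusted p = 0.538 by limma). Among venous genes Lrg1, which hepatocytes secrete too, rose in liver by 0.39 and in muscle by 0.38 (adjusted p = 0.00115 and 0.028 by limma). Among arterial genes Fbln5, a matrix protein, rose in muscle by 0.16 (adjusted p = 0.0486 by limma), 1 of 9 tested. Of the mural cell genes, those of pericytes and smooth muscle, Pdgfrb fell in liver by 0.19 (adjusted p = 0.0134 by limma), 1 of 7 tested, and 0 of 10 passed in muscle, where the pericyte gene Rgs5 stood at 0.18 (adjusted p = 0.0565 by limma). Lymphatic genes gave 0 of 2, 0 of 5 and 0 of 6 in adipose, liver and muscle, and platelet genes 0 of 2 in liver and 0 of 3 in muscle.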

How the data were processed

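RNA from 446 samples of 3 tissues was sequenced as stranded total RNA libraries on a MiSeq, per the labels. FastQC, Trim Galore 0.4.4 and Bowtie 1.2.2 are named in the submitters' processing notes. The quantifier, the build and the annotation behind the values were not given in the sources used here. Per the deposited tables, the authors gave TPM per gene in 1 table per tissue, and the adipose table ended in 1 incomplete line, which was dropped. Gene symbols came from GENCODE M21, which held 99.1% of the gene IDs in liver and muscle. No deposited column was left unused (0), and no read depth is recoverable from TPM.

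Libraries were scaled by a trimmed mean of log ratios to the gene-wise median over nuclear protein-coding genes. Tests used limma 3.58.1 (R 4.3.3) on log2(scaled TPM + 1), with trend and robust moderation, over genes with at least 1 scaled TPM in a share of 0.7 of the smaller group, and Benjamini-Hochberg adjustment over all genes tested. Fold changes are on that scale, which understates changes of low genes. Correlations and ratios used permutation tests with 100000 resamples, two-sided, in Python 3.11.15 (numpy 2.4.6, pandas 2.3.3, scipy 1.17.1). The fits were tested on simulated data with known changes.

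The members and gene lists were chosen with earlier results of these data known. Genes named were all members, the 10 other genes of known symbol with the highest mean r with the members in each tissue, and from each list up to 3 genes with the smallest p. The lists of macrophage, adipocyte, hepatocyte, skeletal myocyte, mesothelial, lymphatic, mural and platelet markers checked other cell types; of the mesothelial list, 1 gene was tested in adipose and 0 passed. Each mouse is 1 replicate. Mouse numbers pair tissues of an animal. Liver and muscle were compared over the 150 genes with the highest r between them by mouse number. Over these genes, liver and muscle correlated best with each other in 141 of 148 mice. Choosing genes by the pairing favours a match, so this count does not test the pairing. The fit with the mouse as a block changed 0 of 40 member calls. The alternatives tried were other scalings, a pseudocount of 0.1, no filter, plain moderation, and leaving out or adding back doubtful libraries.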

Additional observations from a re-analysis of the deposited data

Results flagged for a closer look

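No member's diet effect differed between tissues in the interaction tests. Among the other vascular list genes, 4 of 62 tested passed between liver and muscle, 1 of 10 between adipose and liver and 3 of 13 between adipose and muscle (limma, adjusted p under 0.05). Over all genes 3.26%, 24.1% and 21.7% passed, so the adipose counts are near or below the share of all genes. Each value is the diet effect in the tissue named first minus that in the second on the log2 scale. Between liver and muscle the diet effects of Vegfb differed by -0.64 ± 0.11 (SE, adjusted p = 2.2e-05 by limma), with -0.61 in liver and -0.0014 in muscle. Those of Cd300lg differed by -0.31 (adjusted p = 0.0132 by limma), with -0.10 and 0.20, and those of Pdgfrb by -0.25 (adjusted p = 0.031 by limma), with -0.19 and 0.04. Those of Nrp1 differed by 0.26 (adjusted p = 0.048 by limma), with 0.26 and 0.001.

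Between adipose and liver the diet effects of Fli1, an ETS factor of endothelial and blood cells, differed by 0.36 (adjusted p = 0.00384 by limma), with 0.19 and -0.14. Between adipose and muscle they differed by 0.25 (adjusted p = 0.0191 by limma), with -0.05 in muscle. The diet effects of Efnb2, an arterial ephrin ligand, differed by -0.25 between adipose and muscle (adjusted p = 0.0324 by limma), with -0.15 and 0.11, and those of Cd36 by -0.32 (adjusted p = 0.0193 by limma), with 0.05 and 0.38. Macrophages express Fli1 as well, and the macrophage markers Cd68 and Adgre1 rose in the same adipose libraries by 1.56 and 1.18 on the log2 scale, while the third marker tested, Cd163, stood at -0.13 without passing (adjusted p = 0.171 by limma). Their part in the Fli1 difference was not tested.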

How the results depend on the processing

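The share of tested genes called by diet was 45.6% in adipose, 9.94% in liver and 1.61% in muscle. With TPM as deposited it was 14.4%, 0.479% and 0.111%, with 0 members in each. When low-factor libraries were left out, liver gave 15.6%. With no filter on low values liver gave 1014 of 34874 genes, against 1230 of 12376. In muscle, no filter gave 0.311% and adding mouse 80 gave 1.04%. The liver member call (Kdr, 1) became 0 with a pseudocount of 0.1, with no filter and without the mice that did not match, and Vwf was called in its place without low-factor libraries.

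With TPM as deposited the adipose spread gave 0 genes and 0 members, and the liver and muscle spread 0.014% and 0%. The interaction between liver and muscle then gave 0.064% instead of 3.26%, and that between adipose and liver 5.7% instead of 24.1%. Without low-factor libraries the former gave 5.95% and 1 member. The mouse as a replicate block gave 3.71%, 24.7% and 24% in the 3 interactions and changed no member call. Liver pairs called were 45 with TPM as deposited and 13 within control mice. Relations with Vegfa called were 20 with TPM as deposited and 5 within control mice, marker relations in adipose 35 with TPM as deposited, and ratios called 1 without low-factor libraries.

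Among values that passed the test on at least 1 of the scales, those that changed sign with TPM as deposited were as follows. Ptprb by diet in adipose was 0.060, and Ptprb and Kdr in liver minus muscle were -0.24 and -0.36. The spread difference of Esam in adipose was -0.054. Liver r was 0.93 for Pecam1 with Esam and with Tie1, 0.90 for Pecam1 and for Tek with Flt1, 0.74 for Esam and 0.65 for Emcn with Vwf, and with Vegfa 0.93 for Pecam1 and for Tek, 0.76 for Vwf and 0.83 for Emcn. Muscle Vwf with Vegfa was 0.68. In adipose, r with Cd68 and Adgre1 was 0.51 and 0.58 for Ptprb, 0.62 and 0.69 for Tek, 0.59 and 0.65 for Esam and 0.60 and 0.64 for Vwf, and Vwf gave 0.78 with Pparg and 0.74 with Slc2a4. Some values that passed on neither scale changed sign as well, among them the adipose spread of Pecam1 (-0.13), Tek (-0.13) and Vwf (-0.14), r of Vwf between liver and muscle (-0.080), and r between adipose and liver of Pecam1 (-0.15) and Esam (-0.15).

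Without low-factor libraries, liver r was 0.27 for Pecam1 with Esam, 0.029 for Pecam1 with Tie1, 0.0074 for Pecam1 with Flt1, 0.052 for Tek with Flt1 and -0.031 for Flt1 with Vegfa. Within control mice it was 0.20 for Pecam1 with Flt1, -0.012 for Kdr with Emcn, -0.37 for Tie1 with Flt1 and -0.079 for Esam with Vegfa, and adipose Esam with Adgre1 gave 0.011. The cause was not tested. Leaving mouse 80 out of adipose was an alternative chosen after seeing the data and kept the Ptprb call (1 member). TPM without depth limit what can be said of members near 0 in liver.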
